A study of Mus musculus with 30 samples.

Results

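The transcripts described here are those of the interleukin-12 (IL-12) cytokine family and of IL-15 with its receptor alpha chain, in mouse bone marrow-derived macrophages. They are the 7 genes Il12a, Il12b, Il23a, Il27, Ebi3, Il15 and Il15ra, picked by symbol out of 32361 gene IDs in the count table, and all 7 were among the 15119 genes tested. Macrophages were grown from the bone marrow of C57BL/6J Ticam2-/- mice (KO) or wild-type mice (WT), 3 animals of each genotype. Ticam2 encodes TRAM, the adaptor that couples Toll-like receptor 4 to TRIF signalling. KO and WT cells received LPS (lipopolysaccharide, 10 ng/mL), which Toll-like receptor 4 senses, or LTA (lipoteichoic acid, 100 ng/mL), which Toll-like receptor 2 is known to sense, for 2 h or 6 h, or were left untreated, which gave 10 groups of 3 libraries. The labels name no other allele or agent and give 1 animal per replicate. They do not say that a replicate number marks the same animal in every condition. If it does, all 5 conditions of a genotype share its 3 animals, whereas the tests below treat the libraries as independent.

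The cytokines of this family are secreted heterodimers that share subunits. IL-12 pairs the products of Il12a and Il12b and drives interferon-gamma production by T and NK cells. IL-23 pairs the products of Il23a and Il12b and sustains T cells that make IL-17. IL-27 pairs the products of Il27 and Ebi3, and IL-35 pairs those of Il12a and Ebi3. Both are known for restraining T cell responses, although IL-27 also has activating roles. IL-15 is carried to the cell surface by the receptor alpha chain encoded by Il15ra, made in the same cell, and supports NK cells and memory CD8 T cells. A transcript level does not measure a protein or a dimer, so the values below say only which partner transcripts were present together.

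The 7 genes lie on 7 chromosomes of GRCm38, by GENCODE M21. Il12b (ENSMUSG00000004296) is at chr11:44400063-44414033 on the + strand, Il12a (ENSMUSG00000027776) at chr3:68690644-68698547 (+) and Il23a (ENSMUSG00000025383) at chr10:128296139-128298752 (-). Il27 (ENSMUSG00000044701) is at chr7:126589010-126594941 (-) and Ebi3 (ENSMUSG00000003206) at chr17:55952640-55957022 (+). Il15 (ENSMUSG00000031712) is at chr8:82331632-82403222 (-) and Il15ra (ENSMUSG00000023206) at chr2:11705290-11734317 (+). Their merged exons span 1021 bases in Il27 to 4446 bases in Il15ra.

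The 4 stretches of sequence below are shown because the transcripts fell into groups that differed in their response, and the letters of known factor sites could be looked up in them. Promoter windows of 300 bases (250 before the start site and 50 after it) from RefSeq on GRCm38.p6 covered 4 of the 7 genes in 6 windows. Il23a, Il27 and Il15 had no entry. All stretches are on the + strand, 5′ to 3′, and capitals mark the matches found. The first, chr11:44399813-44400062, is the 250 bases before the Il12b start site. The second, chr17:55952373-55952622, is the same for Ebi3. The third, chr2:11705612-11705711, is the 100 bases before the second Il15ra start site, and the last, chr2:11705727-11705756, is a 30-base stretch after that site.
Il12b upstream: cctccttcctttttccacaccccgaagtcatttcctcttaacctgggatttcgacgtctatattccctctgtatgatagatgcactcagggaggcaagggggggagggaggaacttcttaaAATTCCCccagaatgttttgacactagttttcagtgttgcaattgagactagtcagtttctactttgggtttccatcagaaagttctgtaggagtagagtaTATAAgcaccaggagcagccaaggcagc
Ebi3 upstream: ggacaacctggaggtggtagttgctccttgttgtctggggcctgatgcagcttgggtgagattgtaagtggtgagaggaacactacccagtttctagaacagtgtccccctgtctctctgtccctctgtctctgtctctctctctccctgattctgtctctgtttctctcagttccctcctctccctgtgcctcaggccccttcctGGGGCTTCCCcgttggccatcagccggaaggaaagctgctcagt
Il15ra upstream: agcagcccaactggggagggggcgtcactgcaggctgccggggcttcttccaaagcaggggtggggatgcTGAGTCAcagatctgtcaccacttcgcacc
Il15ra site: ggctaaagcaaAAGCGAAAgcgaatactcc

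The motifs were searched on both strands of whole windows and were chosen with the sequences in view. In Il12b, letters matching GGGAATT, part of an NF-kB type site, began 129 bases before the start and TATAA began 28 bases before it. These letters occur in 3.51% and 24.9% of all 32851 promoter windows of the same length. Ebi3 had an NF-kB type site, spelled GGG, any 2 bases, TT, any base and CC, beginning 44 bases before its start, which 4.79% of windows hold. The second Il15ra window had TGANTCA, an AP-1 type site, 30 bases before the start (7.81% of windows) and AANNGAAA, the core of interferon regulatory factor sites, at base 27 after it (23.9%). The other Il15ra window also held AANNGAAA, while a repeat of GAAA with any 2 bases between the copies (3.44% of windows) was in none of the 6. Of the 2 Il12a windows, 1 matched 1 of the 6 motifs, TATAA at base 46 after its start, and the other matched none. A match says that these letters are present, not that a factor binds there.

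The libraries came in 2 sets. Totals ran to 10641070 to 13521660 counts in the deeper set, made up of the 18 libraries of untreated cells and of 6 h, and to 1334784 to 2658329 counts in the 12 libraries of 2 h. In the 2 h set the summed level of 5 erythroid markers was at most 0.456 CPM (counts scaled to the library total), against 5583 to 7711 CPM in the other set. The sum of fibroblast markers went the other way, at 57.0 to 122.9 CPM in the 2 h set, against 3.20 to 6.23 CPM. Col1a1, Col1a2 and Col3a1 made up this rise. Lum was at 0 in every 2 h group, and Dcn and Pdgfra had at most 0.574 and 0.250 CPM in any group. The sum of hepatocyte markers was higher too, at 40.6 to 85.7 CPM, against 19.8 to 28.7 CPM, through Alb and Apoa1. Ttr was at 0 in every 2 h group, against 20.7 to 25.4 CPM in the other groups. A 2 h group set against untreated cells thus also compares the sets, and the time and the set cannot be told apart. Comparisons within 2 h stay inside 1 set. Ticam2 itself had 14 to 26 counts in KO and 168 to 196 counts in WT libraries with LPS for 6 h, and its counts in KO and WT overlapped in no condition. All 7 macrophage markers were detected in every group, at a summed 14110 to 33950 CPM. With LPS for 6 h the sum was 22630 to 24030 CPM in KO cells and 14110 to 15370 CPM in WT cells. With LTA for 6 h it was 23370 to 24360 CPM in KO cells and 17040 to 17400 CPM in WT cells. Most of each sum was Lyz2, at 20310 CPM in KO and 12310 CPM in WT cells with LPS. Fcgr1 (52.9 CPM in KO, 329 CPM in WT) and Itgam (243 and 285 CPM) went the other way with LPS. These sums are scaled to library totals. With the TMM factors used below, the median log2 fold change of the 7 markers in KO over WT cells was -0.16 with LPS and 0.03 with LTA. Markers of dendritic cells, which are known to make these cytokines, summed to 1.37 to 2.44 CPM in the 6 h KO groups and 8.41 to 11.4 CPM in the 6 h WT groups. Most of this was Ccr7 (9.22 CPM in WT with LPS), while Flt3 had at most 0.0847 CPM in the 6 h groups. Zbtb46 was at 0.519 CPM in WT and 0.266 CPM in KO cells with LPS, and Siglech at 0.270 and 0.129 CPM. The WT means of Xcr1 and Flt3 were higher too. Clec9a was lower in WT cells with LPS (0 against 0.0247 CPM) and higher with LTA (0.0817 against 0.0601 CPM). Cd209a was at 0 in KO cells with LTA. Neutrophil markers summed to 11.65 to 13.96 CPM in KO cells and 19.65 to 19.98 CPM in WT cells with LPS for 6 h, with Ly6g and Elane at 0 in both. Most of this gap was S100a8, at 6.04 CPM in KO and 12.97 CPM in WT cells. S100a9 was at 4.09 and 4.85 CPM. Camp (2.40 CPM in KO, 1.84 CPM in WT) and Ltf (0.290 and 0.186 CPM) went the other way. The part of such cells in the results was not tested, and in bulk RNA fewer expressing cells and less RNA per cell cannot be told apart.

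In the following, levels are CPM scaled by TMM factors, as mean ± SD over 3 libraries, and changes are log2 fold changes ± standard error. A gene is called when its adjusted p in edgeR's quasi-likelihood test is under 0.05 over all genes tested. All 7 genes were higher in WT cells after 6 h of LPS (36.6% of all genes tested were called higher) and all 7 after 6 h of LTA (35.4%). Scaled by total counts alone, 16.2% of all genes were called higher and 63.7% lower with LPS, and 15.7% and 62.3% with LTA, as the median gene shifted by -0.69 and -0.59, and the 7 stayed higher. The median change of the 7 was 5.87 with LPS and 7.16 with LTA, beside 0.03 and 0.01 over all genes. The plot of levels by group shows all libraries.

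**Figure D1:**
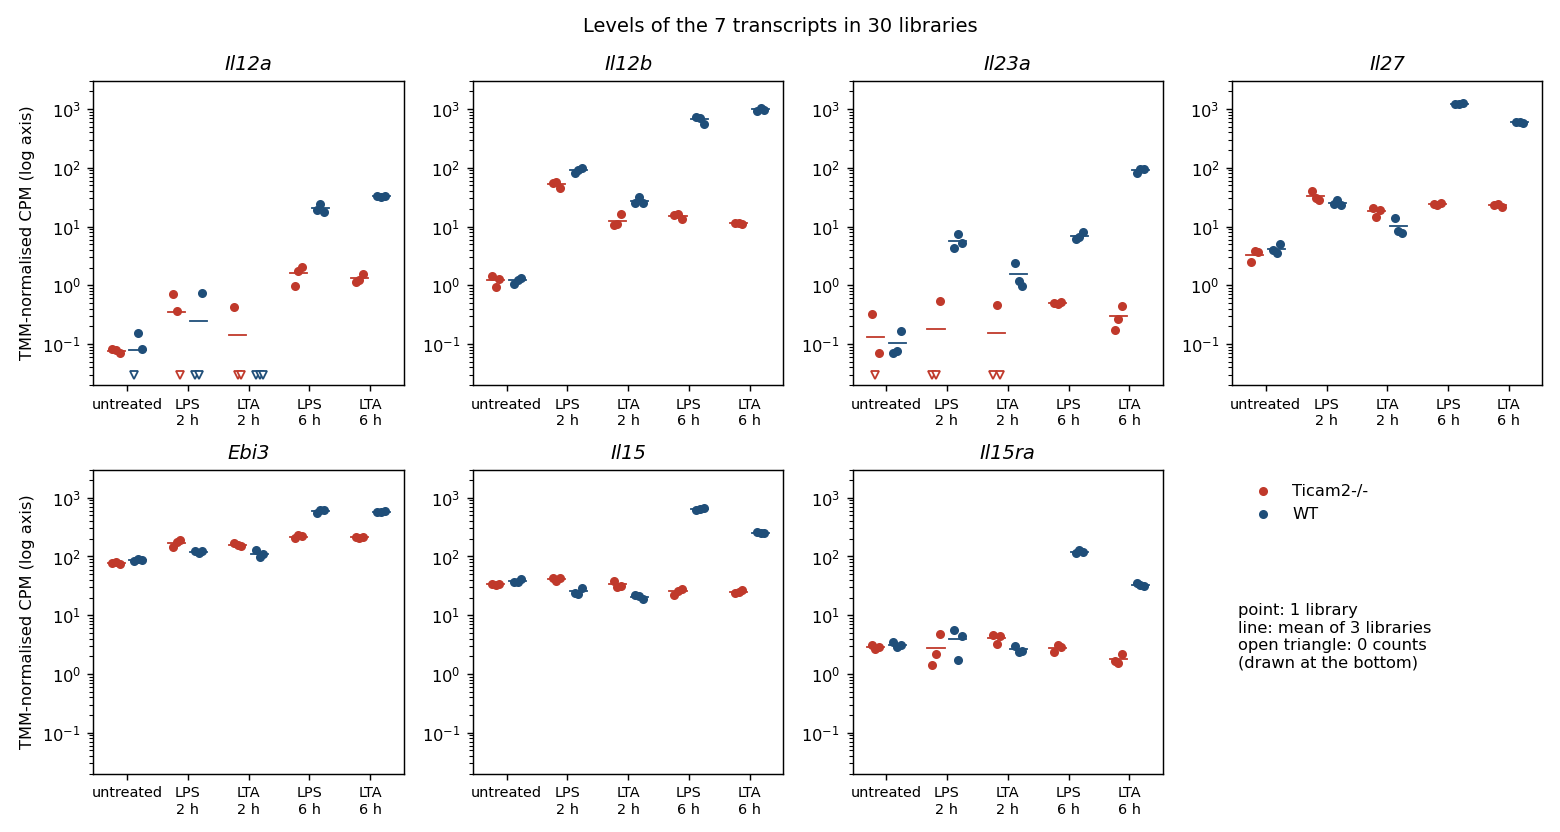
TMM-normalised CPM (log axis) of each transcript in the 30 libraries, with Ticam2-/- in red left of WT in blue; a point is 1 library, a line the mean of 3, and an open triangle a library with 0 counts. The WT groups of 6 h have the highest means for every gene, though the Il23a libraries of WT cells with LPS overlap between 2 h and 6 h, and in Ticam2-/- cells with LPS the Il12b mean is 52.5 CPM at 2 h and 15.3 CPM at 6 h.

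Il12b, the subunit shared by IL-12 and IL-23, had 732, 716 and 554 CPM with LPS and 941, 1051 and 974 CPM with LTA in WT cells, against 1.07, 1.23 and 1.33 CPM in untreated WT cells. No treated library came near the untreated ones. The changes were 9.10 ± 0.14 with LPS (adjusted p = 2.13e-28, edgeR) and 9.66 ± 0.14 with LTA. Il12a, which encodes the subunit specific to IL-12 and IL-35, was almost absent at rest, with 3 counts over 3 untreated WT libraries. It reached 20.4 ± 3.33 CPM with LPS and 32.7 ± 0.595 CPM with LTA. Set against those 3 counts, the ratio of summed counts was 266 with LPS (95% counting interval 90.4 to 1290) and 426 with LTA (145 to 2070). The fitted changes were 7.77 ± 0.27 and 8.45 ± 0.24, and 8.52 and 9.21 without untreated WT replicate 2, which held 2 of the 3 counts.

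Il23a, the subunit that makes IL-23 out of the Il12b product, separated the ligands. WT libraries held 50, 56 and 72 counts with LPS and 744, 883 and 889 counts with LTA, against 1, 1 and 2 counts when untreated. Every LTA library thus held over 10 times as many as any LPS library. The level was 6.93 ± 1.05 CPM with LPS and 91.6 ± 7.78 CPM with LTA, and the changes from untreated were 5.87 ± 0.35 and 9.59 ± 0.17.

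Il27, which encodes the cytokine-like subunit of IL-27, had 1205, 1242 and 1270 CPM with LPS and 605, 602 and 584 CPM with LTA in WT cells, against 4.00, 3.53 and 5.07 CPM untreated. Here the LPS libraries were the higher ones. Changes were 8.21 ± 0.08 with LPS and 7.16 ± 0.08 with LTA. Il27 shares 103 exon bases with Apobr on the other strand, but Apobr had 573 to 636 counts in WT cells with LPS and 610 to 632 counts untreated. Ebi3, which encodes the receptor-like partner of Il27, was already at 87.8 ± 3.8 CPM in untreated WT cells. It reached 602 ± 39.9 CPM with LPS and 580 ± 15.3 CPM with LTA, changes of 2.78 ± 0.06 and 2.72 ± 0.06. An antisense gene, Gm16712, shares 270 exon bases with Ebi3 and had at most 38 counts in any library.

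Il15 had 619, 632 and 675 CPM with LPS and 257, 254 and 248 CPM with LTA in WT cells, against 37.1, 36.2 and 41.0 CPM untreated. Il15ra followed with 116, 127 and 120 CPM with LPS and 35.1, 33.1 and 31.4 CPM with LTA, against 3.57, 2.84 and 3.08 CPM untreated. For both genes the 3 groups did not overlap and stood in the order LPS, LTA, untreated. The share of all genes without overlap was not counted, here or where overlap is named below. The changes of Il15 were 4.08 ± 0.05 and 2.73 ± 0.06, and those of Il15ra 5.25 ± 0.09 and 3.38 ± 0.11.

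KO cells gave a split picture at 6 h. With LPS, 5 of the 7 genes were higher than in untreated KO cells (25.7% of all genes), Il15 was lower (26.6% were) and Il15ra was not called. With LTA, 4 were higher (25.7%) and 2, Il15 and Il15ra, were lower (26.5%), while Il23a was not called. Scaling by totals alone made these shares 15.6% higher and 41.9% lower with LPS and 16.4% and 41.1% with LTA. Il12b reached 15.3 ± 1.69 CPM with LPS and 11.4 ± 0.357 CPM with LTA, against 1.23 ± 0.255 CPM untreated, changes of 3.62 ± 0.23 and 3.19 ± 0.25. Il27 reached 24.3 ± 1.34 and 23.1 ± 1.34 CPM, against 3.33 ± 0.734 CPM untreated (2.85 ± 0.11 and 2.78 ± 0.11). Ebi3 reached 219 ± 13.8 and 215 ± 6.92 CPM, against 77.0 ± 2.48 CPM (1.51 ± 0.06 and 1.48 ± 0.06). These 3 genes therefore still rose in the absence of TRAM, Ebi3 to 2.84 times its untreated level with LPS.

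Il12a summed to 61 counts with LPS and 44 counts with LTA over 3 KO libraries, against 3 counts in untreated ones. The ratios were 20.9 (95% counting interval 6.83 to 104) and 17.0 (5.46 to 85.7). Il23a rested on fewer still, with 6, 6 and 7 counts with LPS and 2, 3 and 5 counts with LTA, against 4, 0 and 1 untreated. Its change with LPS was 1.84 ± 0.62 (adjusted p = 0.0101, edgeR), with adjusted p = 0.0738 without untreated KO replicate 2, adjusted p = 0.0557 without replicate 3, and a change of 3.25 without replicate 1. Its change with LTA, 1.12 ± 0.71 (adjusted p = 0.193), was called without that last library (2.53, adjusted p = 0.0251).

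In the same KO cells the IL-15 pair did not rise. Il15 had 22.3, 26.1 and 28.3 CPM with LPS and 24.0, 24.7 and 26.8 CPM with LTA, against 34.5, 33.3 and 33.6 CPM untreated. All 6 treated libraries lay below all 3 untreated ones, and the changes were -0.40 ± 0.07 and -0.42 ± 0.07 (adjusted p = 1.90e-06 and 8.95e-07, edgeR). Il15ra was at 2.78 ± 0.364 CPM with LPS and 1.78 ± 0.337 CPM with LTA, against 2.84 ± 0.226 CPM untreated. Its change with LTA was -0.67 ± 0.21 (adjusted p = 0.00725), with adjusted p = 0.0515 without KO LTA replicate 2. With LPS the change was -0.03 with a 95% interval of -0.40 to 0.34.

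Set directly against WT at 6 h, all 7 genes were lower in KO cells with LPS (30.6% of all genes were called lower) and all 7 with LTA (28% were). The median difference was -4.65 with LPS and -4.63 with LTA, beside 0.01 and 0.01 over all genes. In none of the 7 did KO and WT libraries overlap, but the share of all genes without overlap was not counted. The plot of KO against WT in each condition gives all differences with their errors. Scaling by total counts alone shifts the median gene of these comparisons by 0.53 with LPS and 0.43 with LTA and gives 61.3% of all genes called higher and 14.5% lower with LPS, and 58.9% and 12.1% with LTA. The 7 genes stayed lower under it, Ebi3, the smallest difference here, by -0.94 with LPS.

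**Figure D2:**
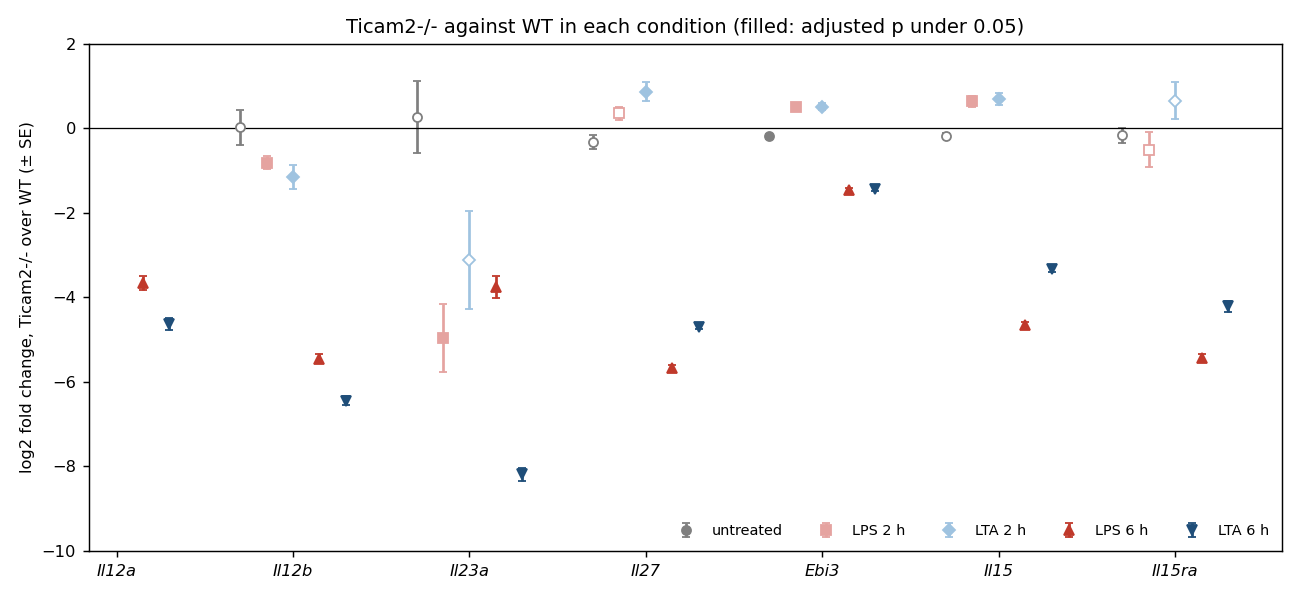
Log2 fold change of Ticam2-/- over WT (± standard error, 3 libraries per group) for each transcript in the 5 conditions, with filled symbols for adjusted p under 0.05; Il12a is shown at 6 h alone, since both groups held 3 counts or fewer elsewhere. The 6 h points lie between -1.44 for Ebi3 and -8.19 for Il23a with LTA, while 2 h points of Ebi3 and Il15 lie above 0.

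Among the IL-12 and IL-23 subunits, Il12b was at 15.3 ± 1.69 CPM in KO cells with LPS, against 667 ± 98.0 CPM in WT cells (-5.45 ± 0.10), and at 11.4 ± 0.357 CPM in KO cells with LTA, against 989 ± 56.6 CPM in WT cells (-6.44 ± 0.10). Il12a was at 1.59 ± 0.538 CPM in KO cells, against 20.4 ± 3.33 CPM in WT cells with LPS (-3.66 ± 0.16), and at 1.31 ± 0.201 CPM, against 32.7 ± 0.595 CPM, with LTA (-4.63 ± 0.15). Il23a was at 0.499 ± 0.0240 CPM in KO cells, against 6.93 ± 1.05 CPM in WT cells with LPS (-3.75 ± 0.26). With LTA it was at 0.298 ± 0.140 CPM in KO cells, against 91.6 ± 7.78 CPM in WT cells, the widest gap of the 14 (-8.19 ± 0.16, adjusted p = 3.73e-44, edgeR).

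The IL-27 partners differed in the size of the drop. Il27 was at 24.3 ± 1.34 CPM in KO cells, against 1239 ± 32.4 CPM in WT cells with LPS (-5.67 ± 0.06), and at 23.1 ± 1.34 CPM, against 597 ± 11.3 CPM, with LTA (-4.69 ± 0.06). Ebi3 was at 219 ± 13.8 CPM in KO cells, against 602 ± 39.9 CPM in WT cells with LPS (-1.46 ± 0.05), and at 215 ± 6.92 CPM, against 580 ± 15.3 CPM, with LTA (-1.44 ± 0.05). Il15 was at 25.6 ± 3.03 CPM in KO cells, against 642 ± 29.6 CPM in WT cells with LPS (-4.65 ± 0.06), and at 25.2 ± 1.49 CPM, against 253 ± 5.00 CPM, with LTA (-3.33 ± 0.06). Il15ra was at 2.78 ± 0.364 CPM, against 121 ± 5.91 CPM, with LPS (-5.43 ± 0.09) and at 1.78 ± 0.337 CPM, against 33.2 ± 1.86 CPM, with LTA (-4.21 ± 0.13).

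Untreated cells differed little. Only Ebi3 was called among the 7, lower in KO cells at 77.4, 79.2 and 74.3 CPM, against 84.5, 92.0 and 87.1 CPM in WT cells (-0.19 ± 0.06, adjusted p = 0.0226, edgeR), where 7.47% of all genes were called lower. The groups did not overlap, yet the adjusted p was 0.156 without WT replicate 2, 0.0576 without WT replicate 3, 0.0666 without KO replicate 1 and 0.133 without KO replicate 3. Il15 stood at -0.17 ± 0.06 (adjusted p = 0.0721). The 95% intervals were wide for the rare transcripts, -1.43 to 1.99 for Il23a and -0.82 to 0.88 for Il12b.

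The response to each ligand was then compared between genotypes, relative to untreated cells of each. The 6 h response was smaller in KO cells for all 7 genes with LPS (23.5% of all genes were called lower in this test) and for all 7 with LTA (20.1%). In this test total counts alone gave 55.9% of all genes higher and 10.9% lower with LPS, and 52.7% and 8.35% with LTA, and the 7 stayed lower. The difference of responses with LPS was -5.27 ± 0.24 for Il15ra, -5.35 ± 0.20 for Il27 and -5.48 ± 0.51 for Il12b. It was -4.47 ± 0.09 for Il15 and -1.27 ± 0.08 for Ebi3. The 2 transcripts with few resting counts were less secure. Il12a stood at -3.65 ± 1.34 with LPS, with adjusted p of 0.0575, 0.0574 and 0.0516 when untreated KO replicate 1, 2 or 3 was left out and -4.41 without untreated WT replicate 2. Il23a stood at -4.04 ± 1.08 with LPS, but at -2.61 (adjusted p = 0.339) without untreated KO replicate 1, the library that held 4 of the 5 resting KO counts. With LTA it stood at -8.47 ± 1.31, and at -7.06 (adjusted p = 0.0217) without that library.

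The size of the KO effect depended on the ligand at 6 h for 6 of the 7 genes, all but Ebi3. Subtracting the KO effect with LTA from that with LPS gave 4.44 ± 0.59 for Il23a, 0.99 ± 0.16 for Il12b and 0.97 ± 0.31 for Il12a, so these 3 were reduced more with LTA (9.14% of all genes were called in this direction). The adjusted p of Il12a (0.0146) became 0.0509 without KO LTA replicate 1, 0.0530 without KO LPS replicate 2 and 0.136 without KO LPS replicate 3. It gave -1.32 ± 0.09 for Il15, -1.22 ± 0.24 for Il15ra and -0.98 ± 0.09 for Il27, which were reduced more with LPS (13.5% of all genes). These shares were 15.2% and 11% with total counts alone. Ebi3 gave -0.03 with a 95% interval of -0.17 to 0.12.

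Each value above is also the LPS over LTA change in KO cells minus that in WT cells. The comparison of ligands within a genotype, in the plot of LPS over LTA, therefore shows where the division comes from and is not separate evidence. In WT cells at 6 h, 3 genes were higher with LPS than with LTA (17.9% of all genes): Il15ra (1.86 ± 0.06), Il15 (1.34 ± 0.05) and Il27 (1.05 ± 0.05). Another 3 were lower with LPS (14% of all genes): Il23a (-3.72 ± 0.10), Il12a (-0.68 ± 0.09) and Il12b (-0.57 ± 0.07). Total counts alone gave 14.1% of all genes higher and 22.5% lower, and the 6 calls held. Ebi3 was not called (0.05 ± 0.05, 95% interval -0.05 to 0.15). In KO cells none of the 7 was called (2.66% of all genes were, edgeR, and 2, Il12b and Il15ra, had an unadjusted p under 0.05, while DESeq2 called 1). Few counts stood behind Il23a (0.72 ± 0.54) and Il12a (0.29 ± 0.29). Il12b in KO cells had 15.9, 16.6 and 13.4 CPM with LPS and 11.4, 11.7 and 10.99 CPM with LTA, with no overlap (0.42 ± 0.15, adjusted p = 0.138, edgeR), and was the call made by DESeq2 (0.43, adjusted p = 0.0494). The dose of the ligands differed 10-fold in mass, so the comparison is of these preparations at these doses.

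**Figure D3:**
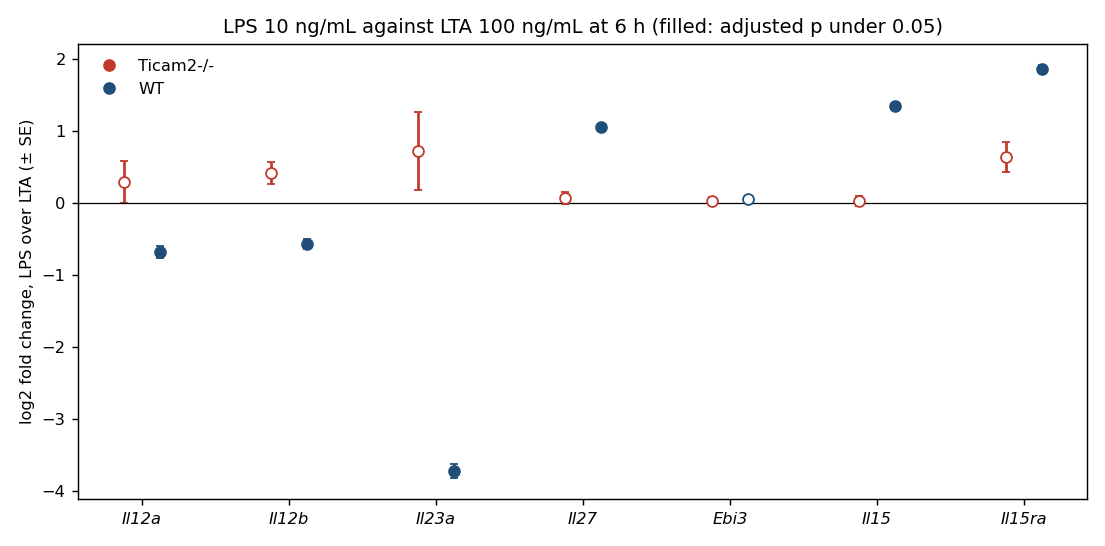
Log2 fold change of LPS over LTA at 6 h (± standard error, 3 libraries per group) for each transcript, Ticam2-/- in red left of WT in blue, filled where the adjusted p is under 0.05. In WT cells Il23a lies at -3.72 and Il15ra at 1.86, while the Ticam2-/- points, all unfilled, lie between 0.03 and 0.72.

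At 2 h the genotypes differed less, except in Il23a with LPS, and for some genes in the other direction. With LPS, 2 genes were higher in KO cells than in WT cells (9.11% of all genes) and 2 were lower (7.24%). With LTA, 3 were higher (7.83%) and 1 was lower (5.21%). With total counts alone, the shares of all genes were 6.04% higher and 9.82% lower with LPS and 5.53% and 6.93% with LTA. Il12b was lower with both ligands. It had 55.2, 56.8 and 45.3 CPM in KO cells with LPS, against 81.2, 92.2 and 100 CPM in WT cells (-0.81 ± 0.15, adjusted p = 0.000305, edgeR), and 10.6, 11.1 and 16.2 CPM in KO cells with LTA, against 25.5, 32.2 and 25.03 CPM in WT cells (-1.15 ± 0.28). The KO level of Il12b was thus 0.571 times the WT level at 2 h of LPS and 0.0229 times at 6 h.

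Il23a held 0, 0 and 1 counts in KO cells with LPS for 2 h, against 7, 13 and 14 counts in WT cells, a ratio of 0.0294 (95% counting interval 0.000722 to 0.175). The fitted difference was -4.96 ± 0.80 (adjusted p = 2.52e-06, edgeR), and it moved to -4.13 without KO replicate 2 and to -8.44 without KO replicate 3, the library with the 1 count. With LTA the counts were 0, 1 and 0 in KO cells, against 4, 2 and 2 in WT cells, a ratio of 0.106 (0.0024 to 0.793; adjusted p = 0.0665 in edgeR, and 0.0422 without KO replicate 2). A count of 0 in a 2 h library allows up to 1.07 to 2.12 CPM. In KO cells with LPS for 2 h Il12b thus had 321 counts over 3 libraries, while Il23a and Il12a, its alternative partners, had 1 and 2. Il12a had 2 counts in WT cells with LPS too and 0 with LTA, so its levels at 2 h were not measurable at this depth.

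The transcripts that were higher in KO cells at 2 h were Ebi3, Il15 and, with LTA, Il27. Ebi3 had 143, 175 and 194 CPM in KO cells with LPS, against 123, 114 and 126 CPM in WT cells (0.51 ± 0.08), and a difference of 0.52 ± 0.09 with LTA. Il15 had 42.5, 38.2 and 43.2 CPM in KO cells with LPS, against 24.0, 23.3 and 29.6 CPM in WT cells (0.64 ± 0.14), and 38.3, 30.5 and 31.2 CPM in KO cells with LTA, against 22.4, 20.9 and 19.1 CPM in WT cells (0.70 ± 0.15). None of these sets of libraries overlapped, and here too the share of all genes without overlap was not counted. Il27 differed by 0.87 ± 0.22 with LTA (adjusted p = 0.00277, edgeR, and 0.0681 without WT replicate 3) and by 0.36 ± 0.15 with LPS (adjusted p = 0.0941). For Il15ra, at 2 to 12 counts per library, the difference was -0.50 with LPS (95% interval -1.34 to 0.35) and 0.66 with LTA (-0.22 to 1.53).

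The 2 h response relative to untreated cells differed by genotype with both ligands for Ebi3 (0.70 ± 0.10 with LPS and 0.71 ± 0.11 with LTA) and Il15 (0.81 ± 0.15 and 0.87 ± 0.17), with the higher log2 change in KO cells. For Il15 the WT level was under the untreated one, at 25.6 CPM with LPS and 20.8 CPM with LTA, against 38.1 CPM. The KO level was 41.3 CPM with LPS and 33.3 CPM with LTA, against 33.8 CPM untreated. In the test of the genotype difference the library set cancels, and 3 genes were called higher with LPS (10% of all genes) and 3 with LTA (9.02%). Total counts alone gave 7.04% of all genes higher and 11.4% lower with LPS, and 6.63% and 8.76% with LTA. The third was Il27, at 1.18 ± 0.27 with LTA and 0.68 ± 0.22 with LPS (adjusted p = 0.0211). With LPS its adjusted p was 0.141 without untreated WT replicate 3, 0.141 without untreated KO replicate 1, 0.0923 without WT LPS replicate 3, 0.0838 without KO LPS replicate 1 and 0.0632 with total counts alone. Il23a was lower with LPS (7.9% of all genes) at -5.24 ± 1.44, but at -3.83 (adjusted p = 0.339) without untreated KO replicate 1 and at -8.73 without KO LPS replicate 3. Il12b with LTA, at -1.18 ± 0.51 (adjusted p = 0.134, edgeR), was called with no filter (0.0176) and by DESeq2 (-1.21, 0.0141). No gene of the 7 had a KO effect at 2 h that differed between the ligands (0.126% of all genes did by edgeR, 0 of the 7 had an unadjusted p under 0.05, and DESeq2 called 0).

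Against untreated cells of the other library set, 4 genes were called higher in KO cells after 2 h of LPS (26.8% of all genes) and 3 after LTA (26.3%), and in WT cells 4 after LPS (19.5%) and 4 after LTA (19%). The KO shares with total counts alone were 22.4% higher and 36% lower with LPS and 23.1% and 33.7% with LTA. Il12b was the furthest raised, by 5.41 ± 0.25 in KO cells and 6.25 ± 0.21 in WT cells with LPS. Il15 was called lower in WT cells with LPS (-0.54 ± 0.11, where 25.5% of all genes were called lower) and with LTA (-0.88 ± 0.13, 23.9%). In KO cells Il15 stood at 0.27 ± 0.10 with LPS (adjusted p = 0.0185), at 0.15 (adjusted p = 0.210) with total counts alone, at 0.21 (adjusted p = 0.123) with no filter, and with adjusted p of 0.0656 and 0.121 without KO LPS replicate 1 or 3. LPS exceeded LTA at 2 h for Il12b and Il27 in KO cells (2.09 ± 0.24 and 0.84 ± 0.16, where 1.14% of all genes were called higher, 0.9% with total counts alone) and in WT cells (1.75 ± 0.18 and 1.34 ± 0.20, where 1.1% were). Il23a exceeded it in WT cells by 1.90 ± 0.51 (adjusted p = 0.0412), a call not made by DESeq2 (adjusted p = 0.0757) or without WT LTA replicate 2 (0.196) or 3 (0.313) or WT LPS replicate 2 (0.236) or 3 (0.106). At 6 h the order of the ligands for Il23a was the opposite.

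Which partner was in excess was read from ratios of counts per kilobase of exon within each library, which do not depend on library scaling. Values are mean log2 ratios ± SD over 3 libraries at 6 h, and the plot of partner ratios shows each library. For the choice between IL-23 and IL-12, Il23a over Il12a was -1.94 ± 0.52 in KO cells and -1.95 ± 0.39 in WT cells with LPS, and -2.45 ± 0.38 in KO cells and 1.08 ± 0.13 in WT cells with LTA. WT cells with LTA were thus the only 6 h group with more Il23a than Il12a, 2.11 to 1, while the other 3 groups had 3.83 to 5.47 times more Il12a. The KO ratios rest on few Il23a counts, 19 over 3 libraries with LPS and 10 with LTA. Without dividing by length, the log2 ratio was -1.54 in KO and -1.55 in WT cells with LPS, and -2.05 in KO cells with LTA. Il12b exceeded both partners throughout. It stood 8.44 times above Il12a in KO cells and 28.2 times in WT cells with LPS, and 7.35 and 26.1 times with LTA. Over Il23a it stood 32.4 times in KO cells and 109 times in WT cells with LPS, and 40.2 and 12.3 times with LTA.

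**Figure D4:**
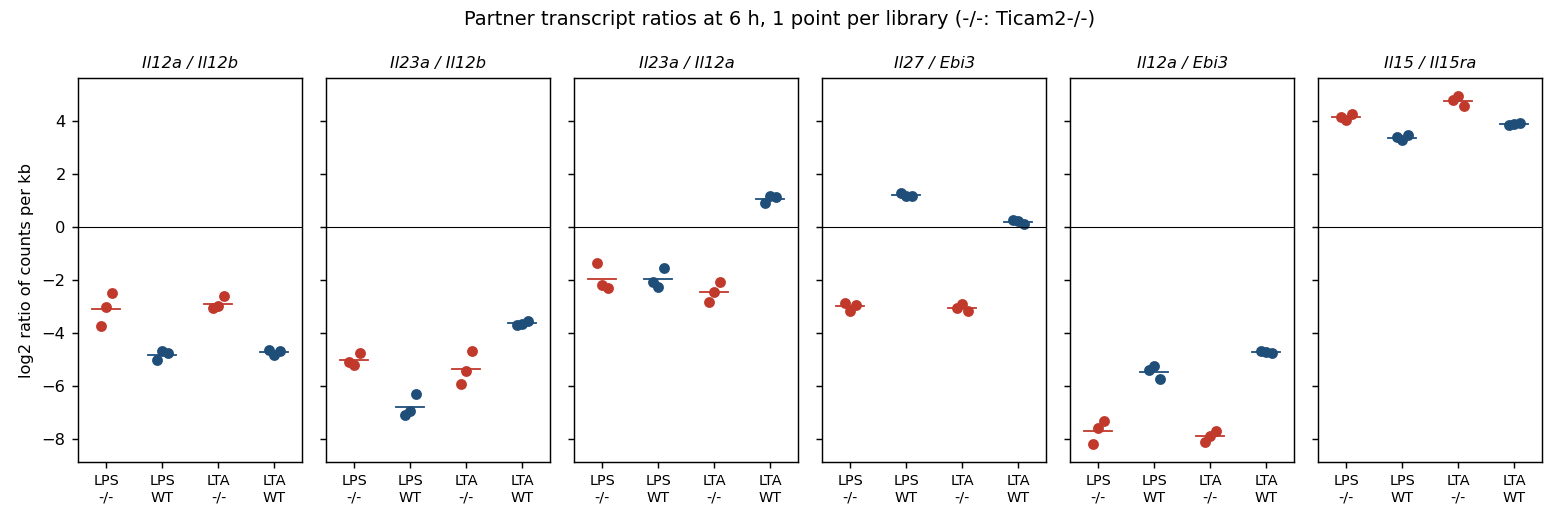
Log2 ratio of counts per kilobase of 2 partner transcripts in each 6 h library (points, lines at the mean of 3), Ticam2-/- in red left of WT in blue for LPS and for LTA, with 0 where both are equal. Il23a over Il12a is above 0 in WT with LTA alone (1.08), and Il27 over Ebi3 is near 0 or above in WT and near -3 in Ticam2-/- cells.

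For IL-27, Il27 over Ebi3 was -2.99 ± 0.15 in KO cells and 1.22 ± 0.06 in WT cells with LPS, and -3.04 ± 0.12 in KO cells and 0.22 ± 0.07 in WT cells with LTA. Il27 was therefore the scarcer partner in KO cells, 7.94 and 8.22 times below Ebi3, and equal to or above Ebi3 in WT cells, 2.33 times with LPS and 1.16 times with LTA. In untreated cells Ebi3 exceeded Il27 by 20.5 times in KO and 18.6 times in WT. For IL-35, Ebi3 exceeded Il12a by 206 times in KO cells and 43.7 times in WT cells with LPS, and by 236 and 26.1 times with LTA. Il15 exceeded Il15ra in all 10 groups, by 17.9 times in KO cells and 10.4 times in WT cells with LPS and by 27.4 and 15 times with LTA.

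With 3 libraries against 3 the exact permutation test cannot give a p under 0.1, and 24 ratio comparisons were made, so no ratio difference can pass a threshold of 0.05. Of these 24, 17 had no overlap between groups (exact two-sided p = 0.1, 0.141 adjusted over the 24). How often ratios of other genes do not overlap was not counted. For Il23a over Il12a the differences were -3.53 ± 0.23 (standard error) in KO against WT cells with LTA and 0.01 ± 0.37 with LPS. For Il27 over Ebi3 they were -4.21 ± 0.09 with LPS and -3.26 ± 0.08 with LTA. A ratio between genes depends on the length used, and the labels do not say whether the libraries cover whole transcripts. Without dividing by length, Il23a over Il12a in WT cells with LTA was 1.48 and Il27 over Ebi3 was 0.04, and no ratio changed sign. Differences between groups in a ratio do not depend on length.

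Ordered by CPM per kilobase, WT cells with LPS for 6 h had Il27 (1213 ± 32), Ebi3 (522 ± 35), Il12b (339 ± 50), Il15 (284 ± 13), Il15ra (27.2 ± 1.3), Il12a (12 ± 2.0) and Il23a (3.08 ± 0.47). Il12b and Il15 overlapped there. KO cells with LPS had Ebi3 first (189 ± 12), then Il27 (23.8 ± 1.3), Il15 (11.3 ± 1.3), Il12b (7.76 ± 0.86), Il12a (0.934 ± 0.32), Il15ra (0.626 ± 0.082) and Il23a (0.222 ± 0.011). Here Il12a and Il15ra overlapped. With LTA the same order held in KO cells, while in WT cells Il23a (40.8 ± 3.5) ranked above Il12a (19.2 ± 0.35) and Il15ra (7.47 ± 0.42), and Ebi3 and Il12b were level at 503 ± 13 and 503 ± 29. In untreated cells of both genotypes Ebi3 (66.7 ± 2.1 in KO, 76.1 ± 3.3 in WT) led, followed by Il15 (14.9 ± 0.29 and 16.8 ± 1.1) and Il27 (3.27 ± 0.72 and 4.11 ± 0.78), with the other 4 under 1.

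To place the 7 genes among the rest, the 3 genes with the closest pattern to each were taken by Pearson correlation of log2 CPM over the 18 untreated and 6 h libraries. These are descriptions, since the libraries share their groups, and in all 7 genes the WT libraries of 6 h stand apart from the others. Il12a was closest to Il12b, Dnajb6 and Stx6 (r of 0.995, 0.995 and 0.994) and Il12b to Dnajb6, Chic2 and Ikbkb (0.997, 0.996 and 0.996), Ikbkb being a kinase of NF-kB activation. Il23a was closest to Tmem159, Cyb5r4 and Mapkapk3 (0.986, 0.980 and 0.978). Il27 was closest to Edn1, Ikzf1 and Slc2a6 (0.998, 0.998 and 0.997). Ebi3 was closest to Ccrl2, Nfkbib and Nfkb1 (0.999, 0.998 and 0.998), of which Nfkb1 is an NF-kB subunit and Nfkbib an inhibitor of it. Il15 was closest to Mitd1, Tap1 and Sp140 (all 0.997), and Il15ra to Igtp, Tap1 and Mx2 (all 0.995), of which Igtp, Tap1 and Mx2 are known as interferon-inducible. Among the 7 themselves, Il15 and Il15ra (0.995) and Il12a and Il12b (0.995) were the closest pairs and Ebi3 and Il15 (0.793) the least alike.

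The cytokines' receptors and signalling proteins, the factors known to act on these genes and the known brakes on them were counted from 3 lists. The shares of all genes to set beside these counts in KO against WT cells are 32.7% higher and 30.6% lower with LPS for 6 h, 30.5% and 28% with LTA for 6 h, 9.11% and 7.24% with LPS for 2 h, and 5.97% and 7.47% untreated. Of 15 genes for receptor chains, their kinases and the STAT factors they activate, 12 were tested. In KO against WT cells with LPS for 6 h 2 of them were higher and 9 lower (median -1.09, beside 0.01 over all genes), and with LTA 2 were higher and 8 lower (median -0.72). In untreated cells 1 was higher and 1 lower. With total counts alone, a setting chosen for the lists after seeing the data, 2 were higher with each ligand, 8 lower with LPS and 7 lower with LTA. Relative log expression scaling, chosen likewise, gave 1 higher and 9 lower with LPS and 2 and 9 with LTA. Il6st, the receptor chain used by IL-27, was among the higher at 1.01 ± 0.12 with LPS. Jak2, a kinase of IL-12 and IL-23 receptors, was at 52.6 ± 1.74 CPM in KO cells, against 348 ± 18.8 CPM in WT cells (-2.72 ± 0.05). Stat3 (-2.72 ± 0.05) and Stat5a (-2.55 ± 0.06), which act after IL-23, IL-27 and IL-15, were lower too. Il12rb1, Il23r and Il2rb were too low to test.

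Of 19 transcription factors, 2 were higher and 16 lower in KO cells with LPS for 6 h (median -0.91), and 4 were higher and 15 lower with LTA (median -0.81). With total counts alone these became 3 and 13 with LPS and 6 and 12 with LTA, and with relative log expression scaling 2 and 17, and 2 and 15. In untreated KO cells 0 were higher and 9 lower (median -0.16). Irf7 and Stat2, factors of interferon signalling, were among those with the smallest p. Irf7 was at 98.6 ± 1.18 CPM in KO cells, against 910 ± 41.3 CPM in WT cells (-3.21 ± 0.05), and Stat2 at 40.8 ± 2.73 CPM in KO cells, against 344 ± 24.8 CPM in WT cells (-3.08 ± 0.06). At 2 h of LPS, 10 of the 19 were higher and 7 lower in KO cells. Of the NF-kB genes, chosen after their values were seen, Nfkb1 (1.04 ± 0.06), Nfkb2 (0.99 ± 0.07) and Relb (0.86 ± 0.08) were higher then, whereas Stat2 (-0.82 ± 0.13) was already lower.

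All 11 genes known to brake this family were lower in KO cells with LPS for 6 h (median -1.63), and 9 were lower and 1 higher with LTA (median -1.01). With total counts alone 10 were lower and 1 higher with LPS, and 7 and 2 with LTA. Untreated KO cells already had 8 of the 11 lower and 1 higher (median -0.34). Il10, a cytokine that restrains Il12b, was at 3.82 ± 0.266 CPM in KO cells, against 110 ± 2.08 CPM in WT cells with LPS (-4.85 ± 0.09). Socs1 (-3.56 ± 0.05) and Socs3 (-1.91 ± 0.04), inhibitors of cytokine signalling, were also lower. At 2 h of LPS 2 of these 11 were higher and 3 lower in KO cells, and 5 were lower with total counts alone or relative log expression scaling.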

How the data were processed

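All 30 libraries stand in 1 table of expected counts, as deposited by the authors. The tools listed in the submitters' processing notes are STAR 2.7.11, Subread 2.1.1 and featureCounts, fastp 0.24.0 and SAMtools 1.22.1, and the builds are GRCm38 and mm10. No source used here gives their order, the annotation release, the strand setting or the library type. Without the strand setting, reads of Ebi3 and Il27 cannot be told apart from those of genes overlapping them on the other strand. Non-whole values made up 25.2% of those above 0, and all values were rounded for the tests. The labels' harvest text gives 6 h alone, and the label of each sample was followed. Each replicate is 1 animal per the labels.

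IDs were matched to GENCODE M21 symbols (26314 of 32361). In R 4.3.3, edgeR 4.0.16 filtered genes by group (minimum count 10, minimum total 15), scaled by TMM (factors 0.691 to 1.151, lowest in WT at 6 h) and fitted a quasi-likelihood model with 1 coefficient per group to all 30 libraries (20 residual degrees of freedom, common biological coefficient of variation 0.0411). It was tested on simulated data with known changes. The simulation changed a small part of the genes, up and down alike, so it did not test the scaling of WT cells at 6 h. P-values were adjusted by Benjamini-Hochberg over all 15119 genes of each of 23 contrasts, with a threshold of 0.05. Ratios between genes used counts plus 0.5, divided by the length of merged exons, and exact permutation tests. Likeness used log2 CPM with a prior count of 2. A count of 0 allows up to 3 counts, which is 0.222 to 0.282 CPM in the deeper set and 1.13 to 2.25 CPM at 2 h before TMM scaling. Intervals on counts and these limits cover counting error only. Alternatives were total counts, DESeq2 1.42.0 with its size factors, no filter, each library set alone, a replicate block, other lengths and each library left out. No library was left out.

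The 7 genes, the lists and the motifs were chosen with earlier results of these data known. Named beside the 7 genes were the 3 genes closest to each in pattern and the 3 called genes per list whose p was smallest in KO against WT cells with LPS for 6 h, of which 1 is not reported here. Il6st, Nfkb1, Nfkb2 and Relb were named outside this rule, after their values were seen.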

Additional observations from a re-analysis of the deposited data

Results flagged for a closer look

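The effects below differed between genotypes or between ligands by a test of the difference itself (an interaction term in the edgeR fit over all genes, adjusted p under 0.05). Values are log2 differences. For the responses, negative ones mean a lower log2 change from untreated in KO than in WT cells, and positive ones a higher log2 change. For the KO effect compared between ligands, negative ones mean a stronger reduction with LPS than with LTA. No explanation was tested.

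For the 6 h response to LPS the difference was -3.65 for Il12a (adjusted p = 0.0199, edgeR), -5.48 for Il12b, -4.04 for Il23a, -5.35 for Il27, -1.27 for Ebi3, -4.47 for Il15 and -5.27 for Il15ra. For the 6 h response to LTA it was -4.63 for Il12a, -6.47 for Il12b, -8.47 for Il23a, -4.38 for Il27, -1.24 for Ebi3, -3.16 for Il15 and -4.05 for Il15ra. With LPS, Il23a stood at -2.61 (adjusted p = 0.339, edgeR) without untreated KO replicate 1, and the adjusted p of Il12a was 0.0575, 0.0574 and 0.0516 without untreated KO replicate 1, 2 or 3. With LTA, Il23a stood at -7.06 (adjusted p = 0.0217) without untreated KO replicate 1. Il12a without untreated WT replicate 2 stood at -4.41 with LPS and -5.39 with LTA.

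For the 2 h responses, which came from the shallower library set, the difference had the other sign for 3 genes. It was 0.68 for Il27, 0.70 for Ebi3 and 0.81 for Il15 with LPS, and 1.18 for Il27, 0.71 for Ebi3 and 0.87 for Il15 with LTA. Il23a stood at -5.24 with LPS, on 1 count in KO and 34 counts in WT libraries, at -3.83 (adjusted p = 0.339, edgeR) without untreated KO replicate 1, at -4.42 without KO LPS replicate 2 and at -8.73 without KO LPS replicate 3. The adjusted p of Il27 with LPS was 0.141, 0.141, 0.0923 and 0.0838 without untreated WT replicate 3, untreated KO replicate 1, WT LPS replicate 3 or KO LPS replicate 1, and 0.0632 with total counts alone.

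The KO effect at 6 h differed between LPS and LTA by 0.97 for Il12a, 0.99 for Il12b and 4.44 for Il23a, which were reduced more with LTA. The adjusted p of Il12a (0.0146, edgeR) was 0.0509, 0.0530 and 0.136 without KO LTA replicate 1, KO LPS replicate 2 or KO LPS replicate 3. It differed by -0.98 for Il27, -1.32 for Il15 and -1.22 for Il15ra, which were reduced more with LPS.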

How the results depend on the processing

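Over 7 other settings (another normalization or test, no filter, library sets fitted alone, a replicate block), 1026 of 1035 values of the 7 genes kept their side of the threshold, 4 lost a call, 5 gained one, and 0 called values changed sign. Leaving out 1 library at a time kept the side of the threshold for 1190 of 1218 values, with 26 calls lost, 2 gained and 0 called values changing sign. In KO cells with LPS against LTA at 6 h, 0 of the 7 genes were called, against 1 (Il12b) with no filter, 1 with the replicate block (0.42, adjusted p = 0.0451, edgeR) and 1 with DESeq2. Why was not tested. Same replicate numbers did not deviate together (median r of 0.005 within a genotype and library set), so the number was not taken as a pairing, and the block changed no other call. Over single libraries left out, that comparison called 175 to 850 of all genes (402 with all). Members called numbered 0 to 1 in untreated KO against WT cells and 2 to 4 for the genotype difference at 2 h of LPS. With the 2 h libraries fitted alone, Il12a, Il23a and Il15ra fell under the count filter and gave no value. Of the partner ratios, 12 of 24 moved by more than their SD with the longest transcript as length and 18 of 24 with no length, none changed sign, and 72 of 72 held when 1 library was left out. Depth limits Il12a and Il23a at rest and at 2 h, and Il15ra at 2 h.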
